A study of Homo sapiens with 18 samples.

Results

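The genes described here encode the aminoacyl-tRNA synthetases. They were taken as every symbol of the count tables built from a 1-letter amino acid code (or EP) followed by ARS, with or without a final 1 or 2, plus FARSA and FARSB, the 2 subunits of the cytosolic phenylalanine enzyme. This gave 36 genes of 39859 listed symbols, 19 for cytosolic and 17 for mitochondrial enzymes. They held 51 rows, since 15 genes were listed both under a current and under an older symbol (WARS1 and WARS, for example). Each member was counted once, by its current symbol, or by its older symbol where that alone was listed, as for IARS1 (IARS). In the shares over all genes each tested symbol counts as a gene, so older rows such as WARS enter beside the current ones. Of these 19 cytosolic members, 7 belong to the multisynthetase complex, among them IARS1, KARS1, LARS1, MARS1, QARS1 and RARS1. The cytosolic glutamate and proline enzyme EPRS1, also part of that complex, and the threonine paralog TARS3 (listed as TARSL2) fall outside the rule. Both are given with the related genes further on.

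RKO-iCas9 cells, a single-cell-derived clone of a human colon carcinoma line with doxycycline-inducible Cas9, carried 1 constitutively expressed, lentiviral guide RNA each, cutting ERH (sgERH) or, as the control, the safe-harbour locus AAVS1 (sgAAVS1). Cas9 was switched on in all of them with 100 ng/mL doxycycline over 5 days. They then stayed non-treated (NT) or were given 25 ng/mL IFNγ or 10 ng/mL IL-1β for 4 h. Ends of polyadenylated transcripts were counted by 3′ mRNA sequencing (QuantSeq) in 18 libraries labelled as 3 biological replicates of each of the 6 groups. The comparisons used the 15 that the study kept, 7 with sgAAVS1 (2 NT, 3 IFNγ, 2 IL-1β) and 8 with sgERH (3 NT, 2 IFNγ, 3 IL-1β), with 4987127 to 5986338 reads each. The labels do not say whether replicates came from separate cultures, and the p-values therefore reflect the spread among these libraries, which may be technical. The targeted gene ERH stood at 537 to 643 CPM (counts per 1000000 reads, after TMM scaling) with sgAAVS1, against 253 to 340.0 CPM with sgERH. All 8 sgERH libraries used lay below all 7 sgAAVS1 libraries. A 3′ count does not read the edited sequence, so the level does not measure the edit itself. Of 7 epithelial and colon carcinoma markers, KRT8, KRT18, EPCAM and CDX2 had reads under both guides, CDH1 only with sgAAVS1, VIL1 only with sgERH and KRT19 in no library used. Their summed level ran from 127 to 157 CPM with sgAAVS1 and from 100.2 to 124 CPM with sgERH. Leukocyte markers (PTPRC, LYZ and ITGAM at 0) and fibroblast and endothelial markers (COL1A1, DCN, PECAM1 and CDH5 at 0) each summed to at most 0.370 CPM. One library used, sgERH_IL-1β replicate 2, stood apart from the others of its group (chi-square per degree of freedom 14.97 and 18.3, against 2.57 to 5.99 for the other replicate pairs used). In bulk RNA, fewer cells of a kind and less RNA per cell cannot be told apart.

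Aminoacyl-tRNA synthetases join each amino acid to its tRNA, the step that fixes the genetic code before elongation factors carry the charged tRNA to the ribosome. Cells keep a cytosolic set and a mitochondrial set, both encoded in the nucleus, and GARS1 and KARS1 supply both compartments and are counted here as cytosolic. WARS1, the cytosolic tryptophan enzyme, is a textbook interferon-induced gene, while many cytosolic synthetase genes are known targets of ATF4, the transcription factor of the amino acid stress response.

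All 36 genes passed the filter on low counts. Median levels over the 15 libraries ran from 19.1 CPM (VARS1) to 220.2 CPM (KARS1) among the cytosolic and from 4.93 CPM (NARS2) to 45.4 CPM (YARS2) among the mitochondrial members. These values count 3′ ends, are not divided by a length, and are given for the precision behind each gene. Together the 36 genes held 0.183% to 0.207% of the reads in sgAAVS1 and 0.188% to 0.211% in sgERH libraries, so the 2 ranges overlapped. Of the reads of VARS1, VARS2 and CARS1, 100%, 99.9% and 99.0% were multimapping, which leaves these 3 uncertain. The rows VARS and VARS1 were identical in all 18 libraries, and YARS and YARS1 in 9, so current and older rows share reads at least there and do not count as separate measurements.

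WARS1 was the only member that rose with IFNγ in sgAAVS1 cells, and it did not pass the test in sgERH cells. WARS1 (ENSG00000140105.18) lies on chromosome 14 from 100333790 to 100376805, on the minus strand of GRCh38. RefSeq places 2 start sites in it, and the windows of 250 bases before and 50 after each start were searched on both strands for the ISRE core (GAAA, any 2 bases, GAAA), bound by interferon-activated factors, and for the GAS element TTCNNNGAA, a palindrome named for activation by IFNγ. Both motifs had a match before the downstream start, 55 and 142 bases ahead of it, in a stretch that is also exonic in an annotated WARS1 transcript. They are shown with the only other member with an ISRE match, EARS2, and with the GAS match of the mitochondrial tryptophan gene WARS2, 30 bases each, 5′ to 3′ on the gene's strand, the motif in capitals (RefSeq, GRCh38.p14, all on the minus strand).
WARS1 ISRE, chr14:100375383-100375412: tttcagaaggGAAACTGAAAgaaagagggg
WARS1 GAS, chr14:100375470-100375499: gctcaagtgtTTCTGAGAAtctgggtgatt
EARS2 ISRE, chr16:23557554-23557583: cctgccacgcTTTCGCTTTCccaagctgaa
WARS2 GAS, chr1:119140844-119140873: gaaattctccTTCCAGGAAggctgagcaga
The EARS2 match is the reverse complement of the core. Of all 27305 genes with a promoter window, 4.38% held the ISRE core in at least 1 window and 9.38% the GAS letters (3.57% and 7.66% of the 35116 windows). Of the 29 members with a window, 2 held the first (6.90%) and 5 the second (17.2%) (CARS1, PARS2, TARS1, WARS1 and WARS2). A match describes letters and not binding.

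In sgAAVS1 cells WARS1 stood at 69.3 and 75.6 CPM without treatment and at 172, 169 and 160.2 CPM with IFNγ. In sgERH cells it stood at 73.6, 71.4 and 74.3 CPM without treatment and at 92.3 and 73.6 CPM with IFNγ. The 3 sgAAVS1_IFNγ libraries lay above the 12 others, while 1 of the 2 sgERH_IFNγ libraries was within the range of its controls. The IFNγ response was a log2 fold change of 1.20 ± 0.14 (SE) in sgAAVS1 (2.30-fold, edgeR adjusted p = 1.67e-06) and 0.18 ± 0.14 in sgERH (1.13-fold, edgeR adjusted p = 0.836). The difference between the responses, sgERH minus sgAAVS1, was −1.02 ± 0.19 (edgeR interaction test, adjusted p = 0.00976). With IFNγ, WARS1 was 2.01-fold lower in sgERH than in sgAAVS1 (−1.01 ± 0.14, edgeR adjusted p = 3.60e-06), and without treatment the difference was 0.01 ± 0.14 (edgeR adjusted p = 0.963). The older row WARS gave 1.29 ± 0.12, 0.17 ± 0.12 and a difference of −1.13 ± 0.17 (edgeR adjusted p = 5.01e-04 for the difference). The difference was no longer called without sgAAVS1_NT replicate 2 (−0.96, adjusted p = 0.130) or without sgERH_IFNγ replicate 3 (−0.87, adjusted p = 0.215). With the 3 libraries that the study left out added back, the sgAAVS1 response was 0.60 (adjusted p = 0.542) and the difference −0.16 (adjusted p = 0.861); the added sgAAVS1_NT replicate 1 held 145 CPM of WARS1 and, below every sgERH library used, 52.7 CPM of ERH, and the added sgERH_IFNγ replicate 2 held 133 CPM of WARS1, above both sgERH_IFNγ libraries used, and 126 CPM of ERH. The third, sgAAVS1_IL-1β replicate 3, held 111 CPM of WARS1 and 676 CPM of ERH (all per the total reads of each library). Over all genes, each of the 3 differed widely from the used libraries of its group. Their chi-square per degree of freedom was 62.1 to 119, against 2.57 to 18.3 for the pairs used. WARS2 stood at 13.3 to 22.1 CPM over the 15 libraries, with responses of −0.04 ± 0.23 in sgAAVS1 and −0.21 ± 0.22 in sgERH.

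**Figure D1:**
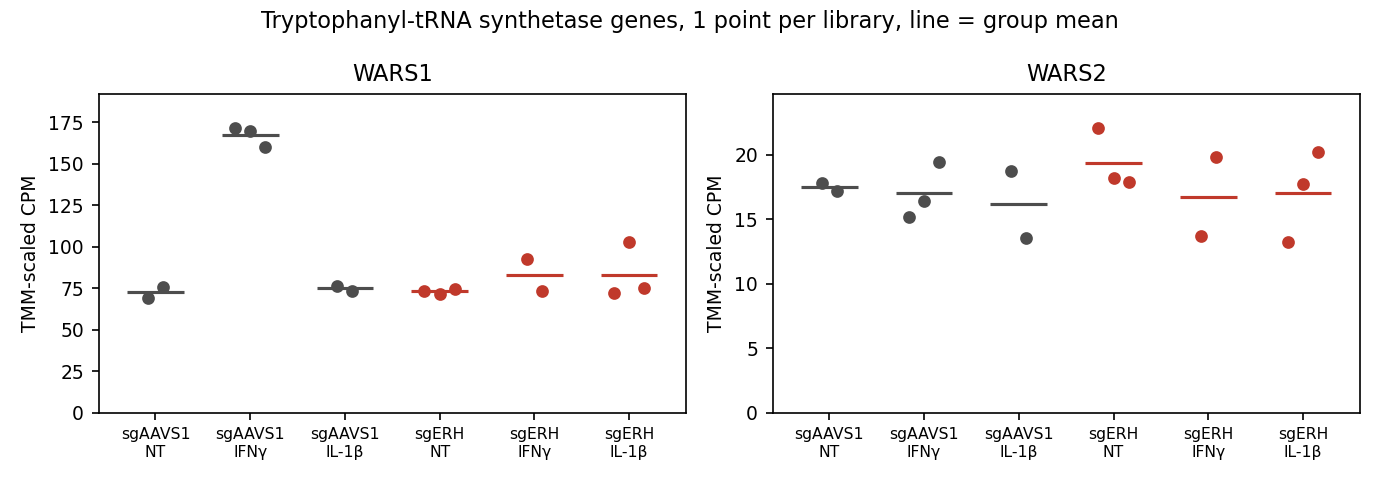
Level of WARS1 (left) and WARS2 (right) in the 15 libraries used, in TMM-scaled CPM from 0, with sgAAVS1 in grey and sgERH in red, 1 point per library and a line at the group mean. WARS1 reached 160.2 to 172 CPM in the 3 sgAAVS1_IFNγ libraries and 69.3 to 103 CPM in all others, whereas WARS2 stayed within 13.3 to 22.1 CPM.

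Of the 36 members, 1 (2.78%) passed the test with IFNγ in sgAAVS1, where 0.98% of the 13370 genes tested did, 0.942% upward. At 2-fold, which WARS1 also passed, 0.598% of all genes were called higher. In sgERH the edgeR test called 0 members (3 at an unadjusted p under 0.05, and 0 by DESeq2), where 0.0299% of all genes were called. For the difference between guides it called 1 member, WARS1, with a negative value, against 0.247% of all genes in either direction and 0.232% with a negative value (0.187% past 2-fold). Without WARS1, the median response of the other 35 members was −0.01 in sgAAVS1 and 0.04 in sgERH, and over all genes the medians were −0.02 and 0.01. The cytosolic members other than WARS1 closest to the threshold in sgAAVS1 were TARS1, the threonine enzyme (0.62 ± 0.18, edgeR adjusted p = 0.149), and CARS1, the cysteine enzyme (0.61 ± 0.22, edgeR adjusted p = 0.324). TARS1 joined WARS1 among the calls without sgERH_IL-1β replicate 2 or replicate 3, giving a count of 2. Its older row TARS, with more reads, gave 0.05 ± 0.11, so the 2 rows of this gene differed. None of the 17 mitochondrial members passed the edgeR test with IFNγ under either guide, 0 and 2 of them being under an unadjusted p of 0.05 in sgAAVS1 and in sgERH (HARS2 and LARS2), and DESeq2 called 0 under both.

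**Figure D2:**
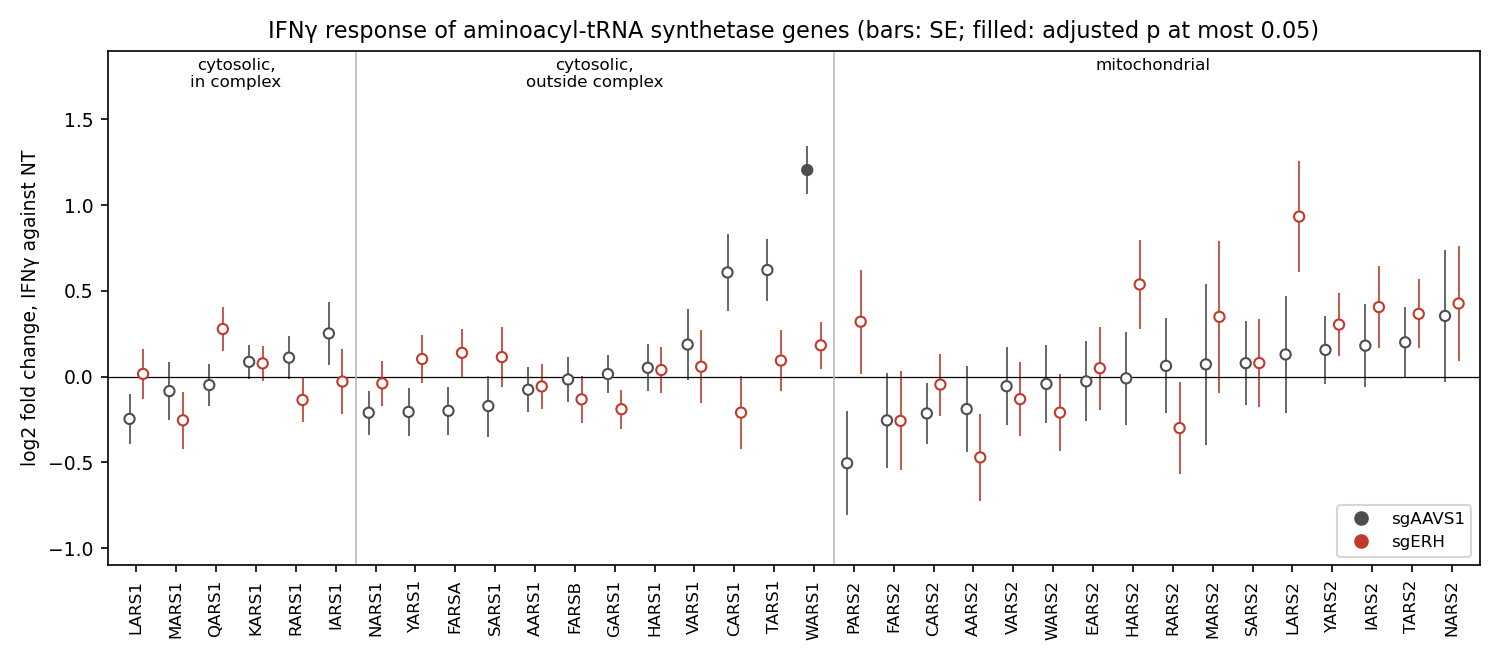
Log2 fold change of IFNγ against NT for 34 of the 36 members (vertical axis) in sgAAVS1 (grey) and sgERH (red), ordered by the sgAAVS1 value within the cytosolic members in the complex, the other cytosolic members and the mitochondrial members; bars are standard errors and filled points passed an adjusted p of 0.05. WARS1 in sgAAVS1, at 1.20, is the single filled point.

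Over the 15 libraries, the profiles most like that of WARS1, by Pearson's r of log2(CPM + 1) among all genes tested and leaving aside its own older row, were those of GBP3 (0.95), a guanylate-binding GTPase, UBE2L6 (0.95), the conjugating enzyme of ISG15, and DTX3L (0.95), a ubiquitin ligase. The libraries share their treatments, so these values are descriptions. GBP3 responded to IFNγ by 2.56 ± 0.16 in sgAAVS1 and by 1.13 ± 0.15 in sgERH, and passed in both (edgeR adjusted p = 4.77e-12 and 1.77e-04). UBE2L6 gave 1.5 ± 0.20 and 0.20 ± 0.19, and DTX3L 2.37 ± 0.16 and 0.27 ± 0.16, and like WARS1 neither passed in sgERH (edgeR adjusted p = 0.885 and 0.795). IRF1, the control gene for the cytokine, responded by 5.18 ± 0.14 in sgAAVS1 and by 2.07 ± 0.12 in sgERH. Among the other members the nearest profile was that of KARS1 (0.73), and WARS2 stood at −0.12.

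IL-1β changed no member in the edgeR test. In sgAAVS1 0 of 36 passed (6 at an unadjusted p under 0.05, and 1 by DESeq2, TARS1), where 0.92% of all genes were called. In sgERH 0 passed (4 unadjusted, 0 by DESeq2) against 0.957% of all genes, and for the difference between guides 0 passed (4 unadjusted, 0 by DESeq2) against 0% of all genes. WARS1 stood at 76.3 and 73.6 CPM in sgAAVS1_IL-1β and at 72.2, 103 and 74.9 CPM in sgERH_IL-1β, where the value of 103 CPM came from replicate 2. Its log2 fold changes with IL-1β were 0.05 ± 0.15 and 0.19 ± 0.12. TARS1 had the lowest adjusted p in sgAAVS1 (0.79 ± 0.20, edgeR adjusted p = 0.0586), and its older row TARS stood at −0.09 ± 0.12. The count in sgAAVS1 became 2 without sgERH_IL-1β replicate 2 (IARS1 and TARS1) and 1 without its replicate 3 (TARS1). Without replicate 3 the count was also 1 in sgERH (QARS1) and 3 for the difference between guides (FARSA, IARS1 and TARS1), and for that difference it was 1 without replicate 2 (TARS1).

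Between the guides, more synthetase genes were lower than higher in sgERH after TMM scaling, by small amounts. Over the 36 members the share called in either direction was not above that of all genes. The share that fell was above it on average over the 3 treatments (30.6% against 23.2%). Within single treatments the share that fell was near or below that of all genes. On average over the 3 treatments, 4 members rose (11.1%) and 11 fell (30.6%). Together these were 41.7% of 36, where 48.7% of all genes tested were called, 25.5% higher and 23.2% lower. These differences in share were not tested. No member passed 2-fold on average, as 8.89% of all genes did. In the cytosol 1 member rose and 9 fell (47.4%) of 19, with a median of −0.21. Among the mitochondrial members 3 rose and 2 fell (11.8%) of 17, with a median of −0.07. The shares called were 52.6% and 29.4%, their difference was not tested, and the mitochondrial members had fewer reads. The median of all genes was 0.04. The TMM factors differed by guide, 0.916 to 0.967 with sgAAVS1 and 1.02 to 1.08 with sgERH. This scaling therefore lowers every sgERH level relative to sgAAVS1. Before it, the guides overlapped in the share of reads held by the cytosolic members. With DESeq2 size factors in place of TMM, 4 members rose and 11 fell as well. The small falls were not tested without such scaling. In the multisynthetase complex 5 of 7 members fell, all 7 values were negative and the median was −0.30. The share of all genes with a negative value was not counted. The cytosolic enzyme EPRS1 is also part of this complex but falls outside the rule. It is therefore not among these 7, and it did not pass. Mean levels of EPRS1 in sgAAVS1 and sgERH were 40.6 and 47.0 CPM in NT, 47.2 and 47.1 CPM under IFNγ, and 56.3 and 41.0 CPM under IL-1β. Of the 12 cytosolic members outside the complex 1 rose and 4 fell, with a median of −0.08. Epithelial markers moved as well: of the 4 tested, KRT8 (−0.30) and KRT18 (−0.75) fell and EPCAM (1.25) and CDX2 (0.81) rose, and their part in these differences was not tested.

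**Figure D3:**
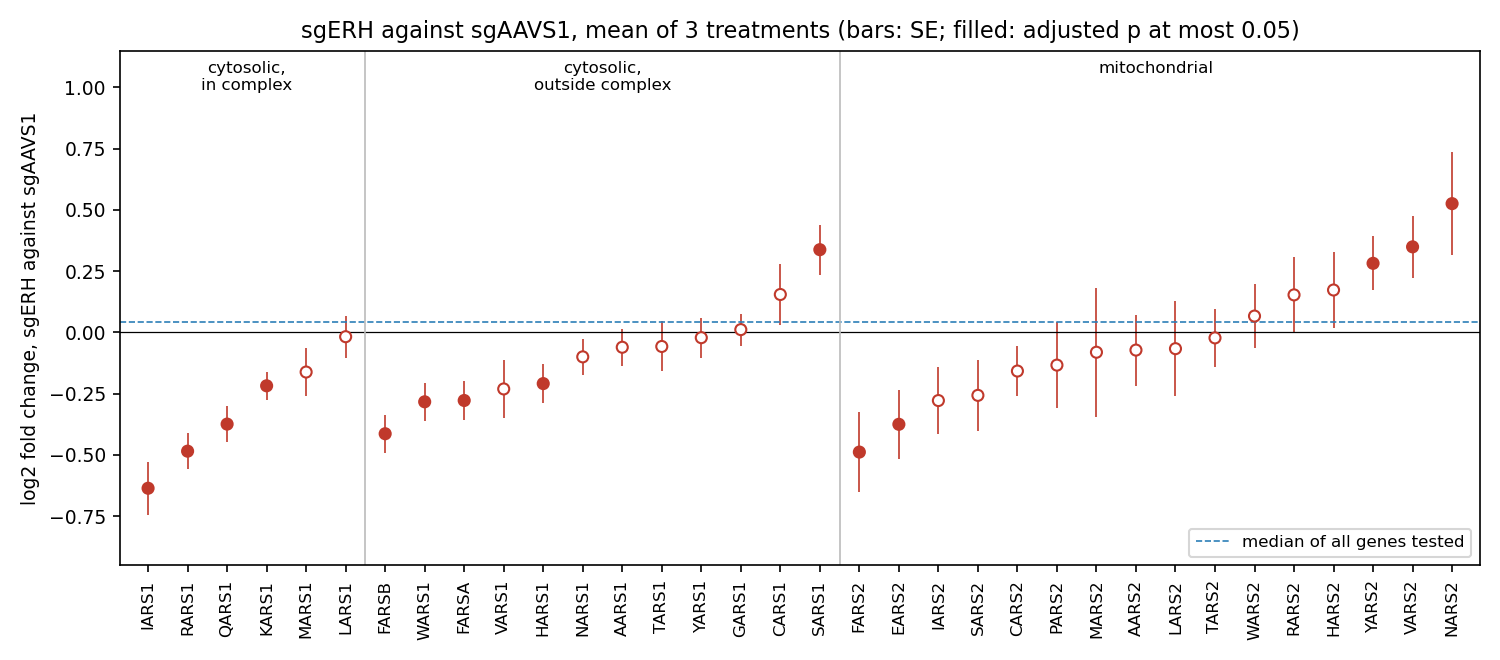
Log2 fold change of sgERH against sgAAVS1, mean of the 3 treatments, for 34 of the 36 members, ordered by value within the cytosolic members in the complex, the other cytosolic members and the mitochondrial members; bars are standard errors, filled points passed an adjusted p of 0.05, and the dashed line is the median of all genes tested (0.04). The complex members lie at −0.64 to −0.02, and the mitochondrial members spread from −0.49 to 0.53.

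Among the complex members, RARS1, the arginine enzyme (chromosome 5, 168486451 to 168519301, plus strand), had the lowest adjusted p. It stood at 64.7 and 66.7 CPM in sgAAVS1_NT, 66.9, 73.7 and 72.1 CPM in sgAAVS1_IFNγ, and 55.7 and 59.5 CPM in sgAAVS1_IL-1β. In sgERH it stood at 47.8, 48.1 and 53.4 CPM without treatment, 49.0 and 41.6 CPM with IFNγ, and 44.6, 41.7 and 43.9 CPM with IL-1β. Every sgERH library was below every sgAAVS1 library. RARS1 and the members given by library below were chosen by their low adjusted p in this same comparison. How many of all genes separate the guides in this way was not counted. RARS1 fell in each treatment, by 0.40, 0.65 and 0.41 on the log2 scale for NT, IFNγ and IL-1β, and on average by 0.48 (SE 0.07, edgeR adjusted p = 4.25e-06). The older row RARS held more reads, 19948 against 4382 over the 15 libraries. It gave −0.37 ± 0.07 on average (edgeR adjusted p = 9.23e-05) and −0.08 ± 0.12 under IL-1β, where it did not pass. Its guides overlapped under IL-1β, at 238 to 255 CPM with sgAAVS1 and 206 to 262 CPM with sgERH.

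IARS1, the isoleucine enzyme (chromosome 9, 92210207 to 92293854, minus strand), stood at 91.1 and 101 CPM in sgAAVS1_NT, 102, 127 and 113 CPM in sgAAVS1_IFNγ and 122 and 137 CPM in sgAAVS1_IL-1β. In sgERH it stood at 80.7, 83.3 and 69.7 CPM without treatment, 73.2 and 79.4 CPM with IFNγ, and 68.5, 40.4 and 81.1 CPM with IL-1β. The guides did not overlap, and the lowest value, 40.4 CPM, came from sgERH_IL-1β replicate 2. IARS1 fell on average by 0.64 (SE 0.11, edgeR adjusted p = 6.35e-05) and under IL-1β by 1.03 (SE 0.18, edgeR adjusted p = 3.73e-04), which with the lower level of WARS1 under IFNγ makes the 2 calls past 2-fold between guides. Of all genes, 2.8% passed 2-fold downward under IL-1β and 2.37% under IFNγ. Without replicate 2 the IL-1β value was −0.79 and without sgAAVS1_IL-1β replicate 2 it was −0.95, both past the adjusted threshold (adjusted p = 2.05e-06 and 0.0105) but short of 2-fold. Of its reads, 28.2% were multimapping, and without them the IL-1β value was −1.18 (adjusted p = 0.0111). The left-out libraries sgAAVS1_NT replicate 1 and sgERH_IFNγ replicate 2 held 8.92 and 14.4 CPM of IARS1 per all reads, below every library used.

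QARS1, the glutamine enzyme (chromosome 3, 49095932 to 49105130, minus strand), stood at 103 and 116 CPM in sgAAVS1_NT, 106, 96.3 and 116 CPM in sgAAVS1_IFNγ and 99.7 and 118 CPM in sgAAVS1_IL-1β. Its sgERH levels were 69.2, 66.7 and 78.0 CPM without treatment, 91.7 and 81.2 CPM with IFNγ, and 89.3, 103 and 88.8 CPM with IL-1β. Of the sgERH libraries, 7 lay below all sgAAVS1 libraries, and the exception was sgERH_IL-1β replicate 2. QARS1 fell without treatment by 0.62 (SE 0.12, edgeR adjusted p = 5.39e-04) and on average by 0.37 (SE 0.07, edgeR adjusted p = 1.07e-04), while −0.29 with IFNγ and −0.21 with IL-1β did not pass. KARS1, the lysine enzyme, ranged over 220.2 to 261 CPM with sgAAVS1 and over 193 to 222 CPM with sgERH, an average fall of 0.22 (edgeR adjusted p = 0.00276). MARS1, the methionine enzyme, and LARS1, the leucine enzyme, did not pass (−0.16 ± 0.10 and −0.02 ± 0.09).

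Outside the complex, both subunits of the cytosolic phenylalanine enzyme fell. FARSB, the beta subunit (chromosome 2, 222566899 to 222656092, minus strand), stood at 92.2 and 83.8 CPM in sgAAVS1_NT, 79.2, 93.1 and 88.3 CPM in sgAAVS1_IFNγ and 70.2 and 68.1 CPM in sgAAVS1_IL-1β. With sgERH the levels were 65.8, 70.3 and 52.7 CPM without treatment, 54.0 and 60.7 CPM with IFNγ, and 55.7, 67.9 and 62.5 CPM with IL-1β. The guides did not overlap within a treatment, though with IL-1β the nearest libraries stood at 68.1 and 67.9 CPM. Its average fall was 0.41 (SE 0.08, edgeR adjusted p = 7.90e-05), with −0.48 ± 0.13 in NT, −0.60 ± 0.14 under IFNγ and −0.16 ± 0.14 under IL-1β, which did not pass. FARSA, the alpha subunit, fell by 0.57 without treatment (edgeR adjusted p = 0.00267) and by 0.28 on average (edgeR adjusted p = 0.00551). It passed under neither cytokine. Its means in sgAAVS1 and sgERH were 131 and 111 CPM with IFNγ, and 123 and 121 CPM with IL-1β. HARS1, the histidine enzyme, fell by 0.21 (edgeR adjusted p = 0.0291), and WARS1 by 0.28 (edgeR adjusted p = 0.00389), an average that the IFNγ libraries set. SARS1, the serine enzyme, was the cytosolic member that rose (0.34 ± 0.10, edgeR adjusted p = 0.00867), while its older row SARS, with more reads, did not pass (0.18 ± 0.09, edgeR adjusted p = 0.103). The 9 cytosolic members that did not pass lay between −0.23 (VARS1) and 0.15 (CARS1).

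The mitochondrial members had few reads, 14 to 362 per library and gene, and wider errors. FARS2, the phenylalanine enzyme (chromosome 6, 5261044 to 5829192, plus strand), stood at 12.4 and 12.5 CPM in sgAAVS1_NT, 11.6, 10.8 and 8.81 CPM in sgAAVS1_IFNγ and 12.9 and 8.61 CPM in sgAAVS1_IL-1β. In sgERH it stood at 8.87, 8.83 and 10.2 CPM without treatment, 4.99 and 10.5 CPM with IFNγ, and 7.78, 6.29 and 6.84 CPM with IL-1β. The ranges of the guides overlapped, with 4 of 8 sgERH libraries below all sgAAVS1 libraries. Its average fall of 0.49 (SE 0.16, edgeR adjusted p = 0.0151) was lost without sgERH_IFNγ replicate 1 (−0.35, adjusted p = 0.0866) or sgAAVS1_IL-1β replicate 1 (−0.38, adjusted p = 0.0922). Over all 24 alternatives this fall passed in 21.

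EARS2, the glutamate enzyme (chromosome 16, 23520754 to 23557731, minus strand), stood at 13.6 and 14.9 CPM in sgAAVS1_NT, 12.5, 14.7 and 14.7 CPM in sgAAVS1_IFNγ and 9.89 and 9.02 CPM in sgAAVS1_IL-1β. The sgERH levels were 10.3, 8.47 and 12.1 CPM without treatment, 11.5 and 9.81 CPM with IFNγ, and 8.49, 8.96 and 6.32 CPM with IL-1β. Within each treatment the guides did not overlap, while across treatments 4 of 8 sgERH libraries lay below all sgAAVS1 libraries. Its average fall of 0.37 (SE 0.14, edgeR adjusted p = 0.0286) was lost in 5 of 15 fits that each left out 1 library (sgAAVS1_NT replicate 3, sgERH_NT replicate 2, sgERH_IFNγ replicate 3, sgAAVS1_IL-1β replicate 1 and sgERH_IL-1β replicate 3), with values of −0.36, −0.33, −0.34, −0.36 and −0.33. Over all 24 alternatives this average fall passed in 16. With IFNγ EARS2 stood at −0.03 in sgAAVS1 and 0.05 in sgERH.

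On average, 3 mitochondrial members rose. VARS2, the valine enzyme (chromosome 6, 30914205 to 30926459, plus strand), stood at 11.5 and 14.1 CPM in sgAAVS1_NT, 11.4, 10.5 and 15.4 CPM in sgAAVS1_IFNγ and 15.5 and 13.7 CPM in sgAAVS1_IL-1β. For sgERH they were 19.8, 16.8 and 17.0 CPM without treatment, 14.98 and 17.6 CPM with IFNγ, and 16.1, 19.1 and 14.7 CPM with IL-1β. Of the sgERH libraries, 6 of 8 lay above all sgAAVS1 libraries. Its rise of 0.35 (SE 0.13, edgeR adjusted p = 0.0249) rests on multimapping reads. It was lost without sgAAVS1_NT replicate 2 (0.30), sgERH_NT replicate 1 (0.32), sgAAVS1_IFNγ replicate 2 (0.31), sgERH_IFNγ replicate 3 (0.31) or sgAAVS1_IL-1β replicate 2 (0.32). Over the 23 alternatives with a result for VARS2, its rise passed in 15.

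YARS2, the tyrosine enzyme (chromosome 12, 32727490 to 32755897, minus strand), stood at 31.9 and 36.5 CPM in sgAAVS1_NT, 32.8, 37.7 and 43.8 CPM in sgAAVS1_IFNγ and 46.8 and 46.7 CPM in sgAAVS1_IL-1β. In sgERH it stood at 47.7, 33.7 and 45.4 CPM without treatment, 56.4 and 48.0 CPM with IFNγ, and 49.5, 36.02 and 63.5 CPM with IL-1β. The ranges overlapped, with 5 of 8 sgERH libraries above all sgAAVS1 libraries. Its rise of 0.28 (SE 0.11, edgeR adjusted p = 0.0362) held in 5 of 15 fits that left out 1 library (sgERH_NT replicate 2, sgAAVS1_IFNγ replicate 3, sgERH_IFNγ replicate 3 and sgERH_IL-1β replicates 1 and 2) and was lost without any of the 10 others, with values from 0.21 to 0.34 over the 15. Over all 24 alternatives the rise of YARS2 passed in 11. NARS2, the asparagine enzyme, had 14 to 39 reads per library and rose by 0.53 (SE 0.21, edgeR adjusted p = 0.04). The 12 others did not pass and lay between −0.28 (IARS2) and 0.17 (HARS2).

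**Figure D4:**
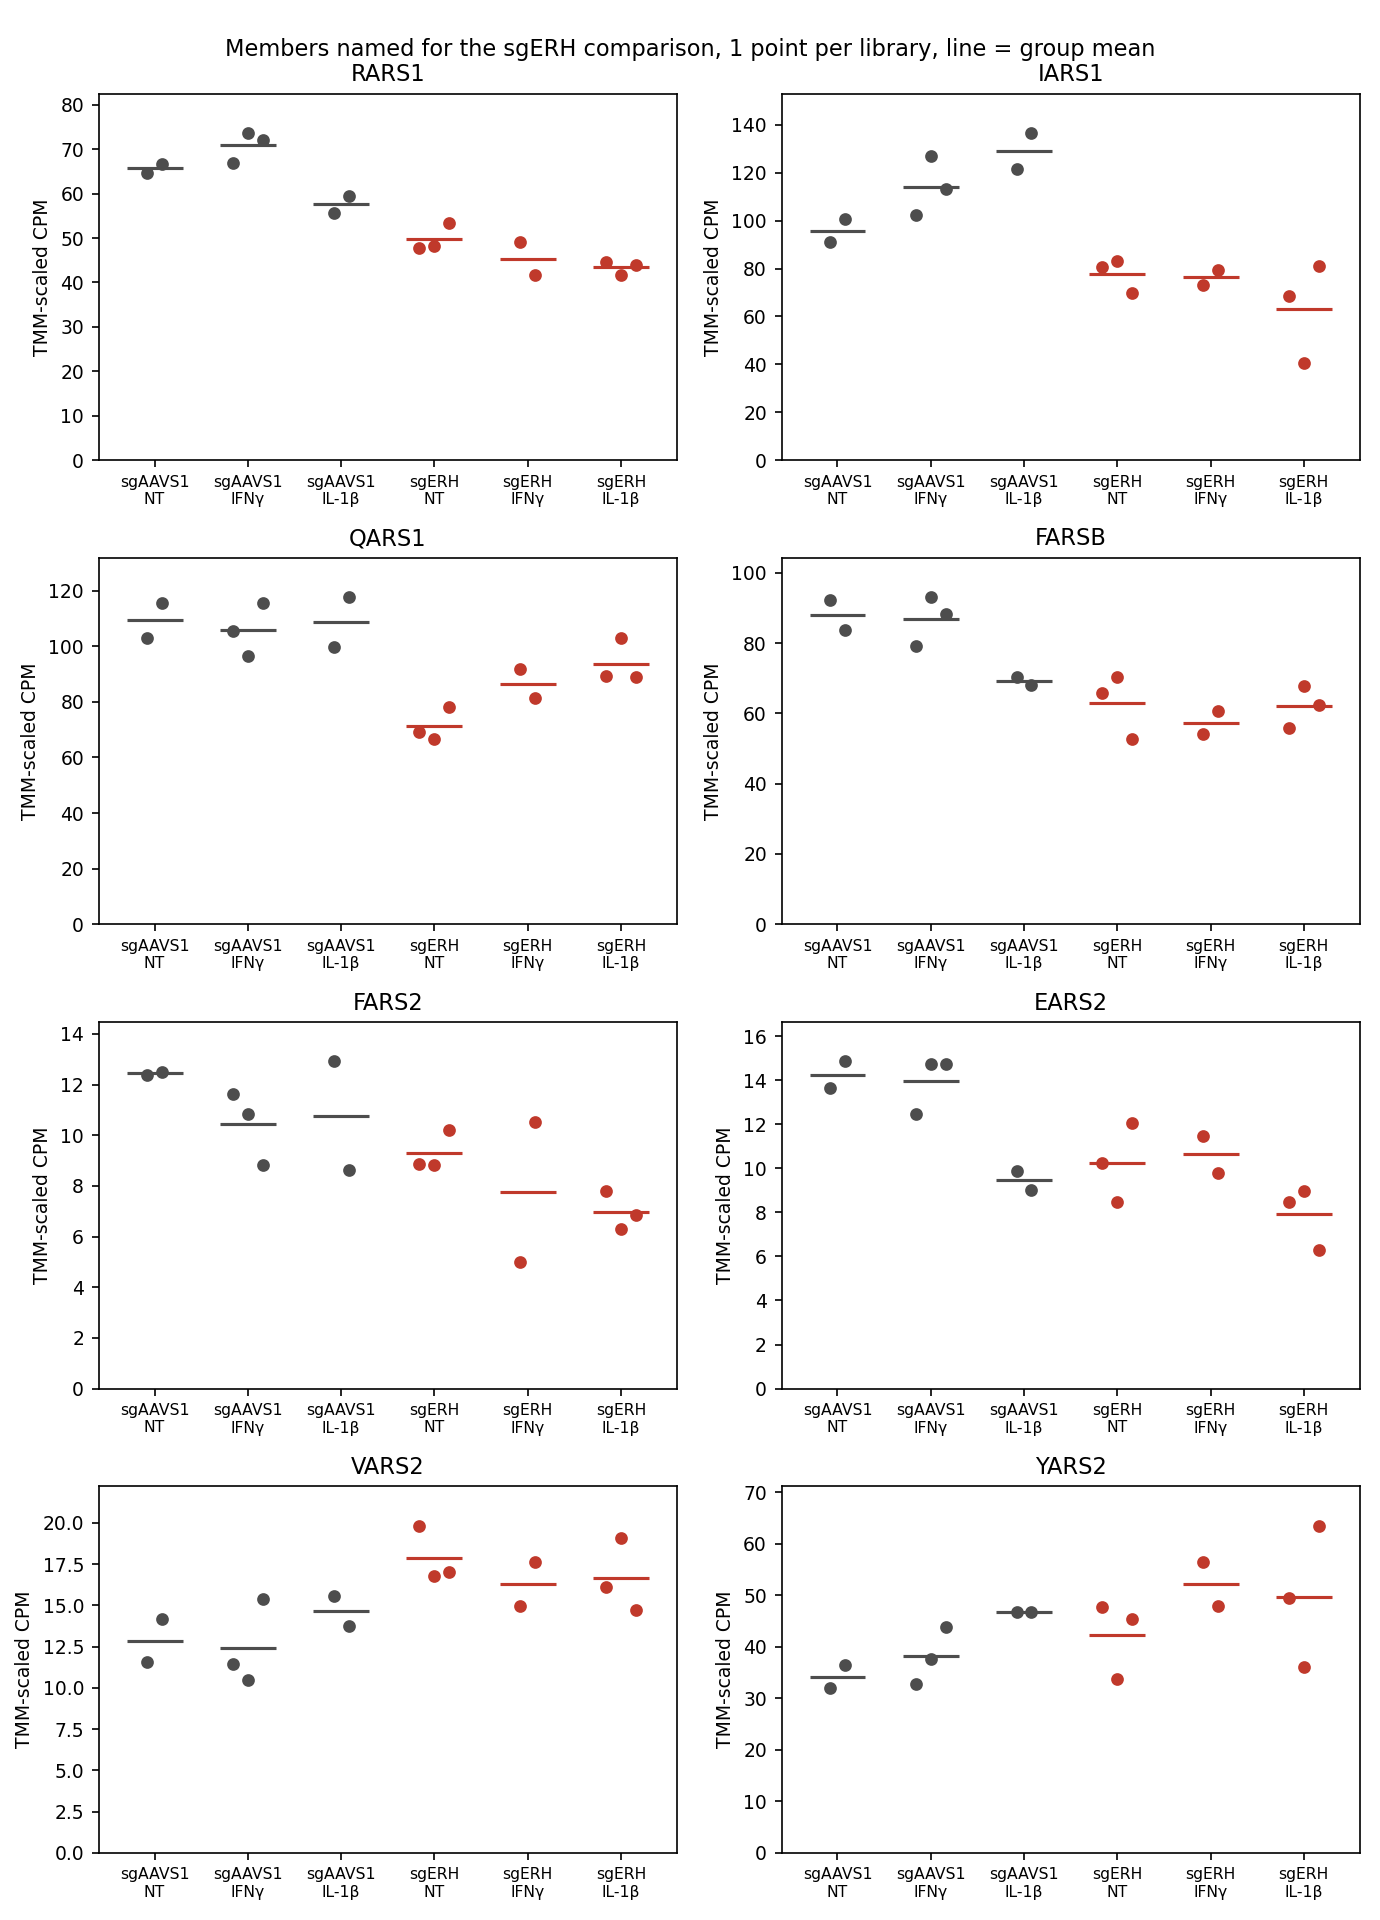
Levels of 4 cytosolic (RARS1, IARS1, QARS1, FARSB) and 4 mitochondrial members (FARS2, EARS2, VARS2, YARS2) in the 15 libraries used, in TMM-scaled CPM from 0, with sgAAVS1 in grey and sgERH in red, 1 point per library and a line at the group mean. For RARS1 and IARS1 all 8 sgERH libraries lie below all 7 sgAAVS1 libraries, and the ranges of the guides overlap for QARS1, FARSB and the 4 mitochondrial genes. The members drawn were chosen by the lowest adjusted p between the guides, and such separation was not counted over all genes.

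Within single treatments the calls were fewer and all downward. Without treatment 5 members fell (13.9% of 36, among them FARSA, FARSB, QARS1 and RARS1), where 13.7% of all genes fell and 26.1% were called in either direction. With IFNγ 4 fell (FARSB, IARS1, RARS1 and WARS1; 11.1%), against 12.6% of all genes that fell and 25% called. With IL-1β 3 fell (IARS1, RARS1 and TARS1; 8.33%), against 13.1% that fell and 26.5% called. Over all 36 members the shares that fell were thus near or below the background. Among the 19 cytosolic members they were 26.3% without treatment, 21.05% with IFNγ and 15.8% with IL-1β, above it, which was not tested. RARS1 was called in all 3 treatments, while its older row RARS, with more reads, did not pass under IL-1β. None of the 17 mitochondrial members passed the edgeR test in a single treatment, with 1, 1 and 2 under an unadjusted p of 0.05 for NT, IFNγ and IL-1β and 0 by DESeq2. The count without treatment was 3 without either sgAAVS1_NT library or without sgERH_NT replicate 1 or 3, and 9 without sgERH_IL-1β replicate 2. With IFNγ it was 2 without sgERH_IFNγ replicate 1 and 9 without sgERH_IL-1β replicate 2. With IL-1β it was 1 without either sgAAVS1_IL-1β library, 5 without sgERH_IL-1β replicate 2 and 6 without its replicate 3. TARS1, with −0.51 ± 0.17 under IL-1β (edgeR adjusted p = 0.0340), stood at 0.44 ± 0.18 without treatment, and its older row TARS at 0.07 ± 0.11 and −0.19 ± 0.11.

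Genes that work beside the synthetases were read in the same average comparison of sgERH with sgAAVS1, in which 48.7% of all genes were called. Of the 3 scaffold proteins of the multisynthetase complex, EEF1E1 (−0.55 ± 0.11, edgeR adjusted p = 9.79e-05) and AIMP1 (−0.25 ± 0.07, edgeR adjusted p = 0.00474) fell and AIMP2 did not pass (−0.08 ± 0.10). EEF1E1 fell in each treatment as well. EPRS1 and TARS3 did not pass (−0.08 ± 0.11 and 0.18 ± 0.25). Of elongation factor 1, which delivers charged tRNA to the ribosome, all 4 subunits tested fell (EEF1A1, EEF1B2, EEF1D and EEF1G, median −0.53), and of the mitochondrial elongation factors TUFM and GFM2 fell and TSFM and GFM1 did not pass. Of 9 other genes of tRNA charging or editing 3 rose (PSTK, GATC and DTD2) and 2 fell (GATB and DTD1).

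Of the listed genes of the ATF4 pathway, more rose than fell in sgERH, in the comparison where 25.5% of all genes rose and 23.2% fell. ATF4 itself ranged over 242 to 298 CPM with sgAAVS1 and over 468 to 733 CPM with sgERH, an average rise of 1.11 ± 0.08 (edgeR adjusted p = 1.74e-11). Of 19 tested members of the list, 10 rose (with DDIT3, ATF3, CHAC1, SESN2, SLC7A11 and CEBPB past 2-fold beside ATF4) and 4 fell (PSAT1, PHGDH and SHMT2 of serine and glycine synthesis, and PCK2), with a median of 0.47. This list was not tested against the synthetase genes. The letters TGATGNAA of the CARE element, at which ATF4 binds with a C/EBP partner, were found on either strand in the promoter windows of 8 of the 29 members with a window (AARS1, CARS1, GARS1, IARS1, MARS1, NARS1, TARS1 and YARS2), that is 27.6% of them, and in 4.46% of all 27305 genes with a window. The matches of IARS1, the member with the largest average fall, and of TARS1 are shown with the motif, here as its reverse complement, in capitals.
IARS1 CARE, chr9:92293692-92293721, minus strand: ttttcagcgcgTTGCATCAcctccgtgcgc
TARS1 CARE, chr5:33440956-33440985, plus strand: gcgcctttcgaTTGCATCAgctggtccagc
On average over treatments, 1 of the 8 members with a match rose (YARS2) and 1 fell (IARS1), with a median of −0.06, and of the 21 without a match 2 rose and 9 fell, with a median of −0.21. Within treatments the median of the members with a match was 0.03 in NT, −0.14 under IFNγ and 0.06 under IL-1β, and that of those without was −0.25, −0.15 and −0.08. No test was made of the difference between the 2 groups, and the letters alone do not show that ATF4 was bound.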

How the data were processed

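The submitters' processing notes name Trim Galore 0.6.2, FastQC 0.11.8 and SlamDunk, with GRCh38 as the genome. The authors assigned reads to 3′-end windows of transcripts and collapsed the windows by gene symbol. The deposited values used here are whole-number read counts per symbol, not normalized; counts are of reads, 4987127 to 5986338 per library used. Deposited multimapping counts were used to mark uncertain genes and for 1 alternative. Of the 18 libraries, 3 that the study removed after principal component analysis (replicate 1 of sgAAVS1_NT, replicate 2 of sgERH_IFNγ, replicate 3 of sgAAVS1_IL-1β) were left out. Counts of 13370 genes passing filterByExpr were fitted in 1 model of 6 groups with edgeR 4.0.16 (R 4.3.3; TMM factors, robust quasi-likelihood F test; biological coefficient of variation 12.6%), and p-values were adjusted by Benjamini-Hochberg over all genes tested. The threshold for calling a gene higher or lower was an adjusted p of 0.05, and 2-fold means a log2 fold change of 1 or more in size as well. There were 10 comparisons: each cytokine in each guide, the difference between guides in each response, and the 2 guides within each treatment and averaged over treatments. The fit was tested on simulated data. DESeq2 1.42.0, its size factors, no filter, all 18 libraries, only the groups compared, a replicate block, the older or summed rows, no multimapping reads and leaving out each library were tried. The row of the older symbol was added as an alternative after the data were seen.

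Values in every library are given for WARS1, for members past 2-fold in any comparison, and for the 4 cytosolic and 4 mitochondrial members with the lowest adjusted p in the average sgERH comparison. The members and the gene lists (complex scaffolds, other charging genes, elongation factors, ATF4 pathway, family genes outside the rule, and epithelial, leukocyte, fibroblast and endothelial markers) were chosen with earlier results of these data known. Positions are from GENCODE on GRCh38; promoter sequences are RefSeq windows of 300 bases, found for 29 of 36 members. Single values of 2 members, which enter the counts and medians, are not reported here.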

Additional observations from a re-analysis of the deposited data

Results flagged for a closer look

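The IFNγ response of WARS1 differed between the guides by a test of the difference itself: −1.02 on the log2 scale, sgERH minus sgAAVS1 (edgeR interaction test, adjusted p = 0.00976), from responses of 0.18 in sgERH and 1.20 in sgAAVS1. Over 24 alternatives the difference ran from −1.19 to −0.16 and its adjusted p from 1.74e-05 to 0.861, and it passed in 21. The alternative furthest from the reported value added back the 3 libraries that the study left out. No group held 4 or more libraries, so single libraries could not be tested as outliers.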

How the results depend on the processing

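WARS1 and the 8 other members given by library kept their direction under every alternative run for them, though not always their side of the threshold; the older row of TARS1 changed its sign under IL-1β. With all 18 libraries, 0 members were called with IFNγ in sgAAVS1, 0 for the IFNγ difference, 1 without treatment (sgERH against sgAAVS1), 0 under IFNγ, 0 under IL-1β and 3 on average, and WARS1 lost its IFNγ response (0.60) and the difference (−0.16); the cause was not tested. With no filter on low counts the counts were 2 with IFNγ in sgAAVS1, 1 with IL-1β in sgAAVS1, 2 for the IL-1β difference, and 7 and 5 for sgERH under IFNγ and IL-1β. Fitting only the groups compared gave 2 with IFNγ and 3 with IL-1β in sgAAVS1, and 8, 9 and 1 for sgERH in NT, IFNγ and IL-1β. DESeq2 called 1 with IL-1β in sgAAVS1. The older row, or the sum of both rows, gave 1 for sgERH under IL-1β. Where both rows share reads, as for VARS1, the sum counts those reads more than once.

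Leaving out 1 library gave counts of 1 to 2 with IFNγ in sgAAVS1, 0 in sgERH, 0 to 1 for the IFNγ difference, 0 to 2 and 0 to 1 with IL-1β in sgAAVS1 and sgERH, 0 to 3 for the IL-1β difference, and 3 to 9, 2 to 9, 1 to 6 and 11 to 17 for sgERH in NT, IFNγ, IL-1β and on average. WARS1 ran from 1.145 to 1.28 with IFNγ in sgAAVS1 (15 of 15 past), from 0.0097 to 0.34 in sgERH (0 past) and from −1.19 to −0.87 for the difference (13 past).

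Same-numbered libraries showed little shared deviation from their group means (30 pairs, r from −0.06 to 0.14, 1 over 0.1). Of 15 libraries, 6 correlated best with their own number, and the level expected by chance was not computed. In groups with 2 libraries the deviations mirror each other, so the pairs are not independent. The numbers were not taken as a pairing. A replicate block gave 1 member with IL-1β in sgAAVS1 and left the WARS1 difference at −0.99 (adjusted p = 0.0208). NARS2, with 14 to 39 reads per library, had the fewest reads, and its SE of 0.21 on average over treatments limits what its values can show.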
